A study of Saccharomyces cerevisiae with 5 samples.

Results

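The subject here is the polyadenylated RNA of unstressed budding yeast in rich glucose medium. All 6697 annotated coding sequences (CDS) of the deposited expression table were taken, out of 6697 in the table, and only the library of untreated cells was used. The strain was BY4741, a haploid laboratory derivative of S288C and the wild type of the study, in which HIS3, LEU2, MET17 (MET15) and URA3 are deleted in part or whole. Cells were grown in YPD (yeast extract, peptone and glucose) to mid-log phase with no CuSO4 added. The series holds 5 samples. The others, which are a second mRNA library from cells with CuSO4, a pair of γH2A ChIP libraries and an input, were not used.

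In glucose, budding yeast ferments even in the presence of oxygen, and its transcription is largely given over to glycolysis and to making ribosomes. Glucose also represses genes for other sugars, for ethanol and fatty acid use and for much of respiration, while meiosis is off in haploid cells. Many yeast genes are kept as duplicates from an ancient whole genome duplication, so a second question is which copy supplies the mRNA.

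Each value was a log2 level, which is reads per kilobase of CDS after scaling of the library, so levels of different genes can be set against each other per length. There was 1 library, so no level has a replicate error, no test was made, and every interval covers counting error only. Counts summed over all CDS came to 5572698 reads, with a median of 276 reads per CDS. A read in overlapping CDS can be counted in each of them, so this sum can exceed the number of separate reads. Shares of reads and their intervals take this sum as the total. The median level of all CDS was 7.82 on the log2 scale, with the middle 50% between 6.77 and 8.98, and the highest 10% began at 10.36. Counts near an overlapping or duplicated gene are less certain. Of all CDS, 1325 overlapped another CDS and 389 had a near-identical copy elsewhere, which means at least 50% of their length at 95% identity or more.

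The reads matched the known deletions and mating type of the strain. URA3 (pyrimidine synthesis), LEU2 (leucine synthesis) and MET17 (sulfide assimilation) had 0 reads, which allows levels of at most 1.95 for URA3, 1.50 for LEU2 and 1.22 for MET17 on the log2 scale (3 reads each). HIS3 (histidine synthesis), whose deletion in this strain is partial, had 291 reads and a level of 8.83. Genes specific to MATa cells were all read. The 7 a-specific genes lay between 8.03 and 12.70 on the log2 scale, led by the a-factor gene MFA2 (754 reads, 12.70), the α-factor receptor STE2 (4433 reads, 11.79) and the other a-factor gene MFA1 (312 reads, 11.51). AGA2, the adhesion subunit of a-agglutinin, had 510 reads and a level of 10.97. BAR1, the protease that degrades α-factor, had 2303 reads and a level of 10.40. STE6, the a-factor exporter, had 2313 reads and a level of 9.27. ASG7 had the lowest level of the 7, at 8.03 with 159 reads.

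Of the 4 α-specific genes, all lay below the median of all CDS. MF(ALPHA)1, the main α-factor gene, had 0 reads and the a-factor receptor STE3 had 11 reads (a level of 3.01). The α-agglutinin gene SAG1 had 190 reads (6.65) and MF(ALPHA)2 had 46 (7.04). At the mating type loci, MATALPHA1 and its silent copy HMLALPHA1 had 0 reads, and MATALPHA2 and HMLALPHA2 had 6 reads each, while HMRA1 had 277 reads and HMRA2 had 186. All of these but HMRA1 have near-identical copies, so their counts at single sites are uncertain. The reference genome carries the α alleles at MAT, so reads from MATa1 in these cells have their only full match at the silent HMR copy, and the 2 sites cannot be told apart.

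Sequences of 7 genes are shown here, since the use of codons ran in parallel with level across the transcriptome and the exceptions are of interest. Each line is the opening 90 coding bases, written 5′ to 3′ from the start codon in RefSeq R64. Capitals mark the 23 preferred codons, which are a textbook set for yeast, and tRNA levels were not measured here. TDH3, CDC19 and PDC1 were among the highest CDS. PYK2 and PDC5 are the rarely used duplicates of CDC19 and PDC1. PAU8 is a seripauperin without a read, and OSW1 is a spore wall gene without a read. As PAU8 has near-identical copies, its own level is uncertain.
TDH3 (chrVII:883721-883810, minus strand): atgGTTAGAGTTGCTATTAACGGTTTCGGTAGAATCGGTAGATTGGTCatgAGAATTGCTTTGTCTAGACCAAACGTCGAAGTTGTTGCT
CDC19 (chrI:71786-71875, plus strand): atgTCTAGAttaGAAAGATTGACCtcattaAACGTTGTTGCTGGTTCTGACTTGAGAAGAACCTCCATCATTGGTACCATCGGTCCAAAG
PYK2 (chrXV:986373-986462, minus strand): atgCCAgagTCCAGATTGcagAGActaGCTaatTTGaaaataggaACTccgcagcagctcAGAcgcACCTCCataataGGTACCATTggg
PDC1 (chrXII:233992-234081, minus strand): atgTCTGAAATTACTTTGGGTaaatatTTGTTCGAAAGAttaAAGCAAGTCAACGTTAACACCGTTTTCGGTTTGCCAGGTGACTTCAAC
PDC5 (chrXII:410723-410812, plus strand): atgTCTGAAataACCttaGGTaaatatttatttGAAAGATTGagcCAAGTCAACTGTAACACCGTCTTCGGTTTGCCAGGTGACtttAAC
PAU8 (chrI:2080-2169, minus strand): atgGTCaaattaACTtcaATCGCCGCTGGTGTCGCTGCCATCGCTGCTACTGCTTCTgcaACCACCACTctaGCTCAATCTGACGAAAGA
OSW1 (chrXV:807271-807360, plus strand): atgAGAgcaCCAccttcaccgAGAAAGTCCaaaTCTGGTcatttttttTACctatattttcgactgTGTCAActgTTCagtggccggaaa
Of these 30 codons, 28 were preferred in TDH3, 26 in CDC19 and 26 in PDC1, against 14 in PYK2 and 11 in OSW1. PDC5 had 21 and PAU8 had 24, although both had low counts.

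The mRNA pool was concentrated in few genes. When reads per length were summed over all CDS, TDH3 alone held 1.76% of the pool, the 10 highest CDS held 9.91%, the 25 highest 19.2% and the 100 highest 39.8%. As a share of reads, with no division by length, these 100 CDS held 29.5% (95% Clopper-Pearson interval 29.46 to 29.54). Only 170 CDS made up 50% of the pool and 814 made up 75%, while the lower 50% of CDS together held 5.72%.

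**Figure D1:**
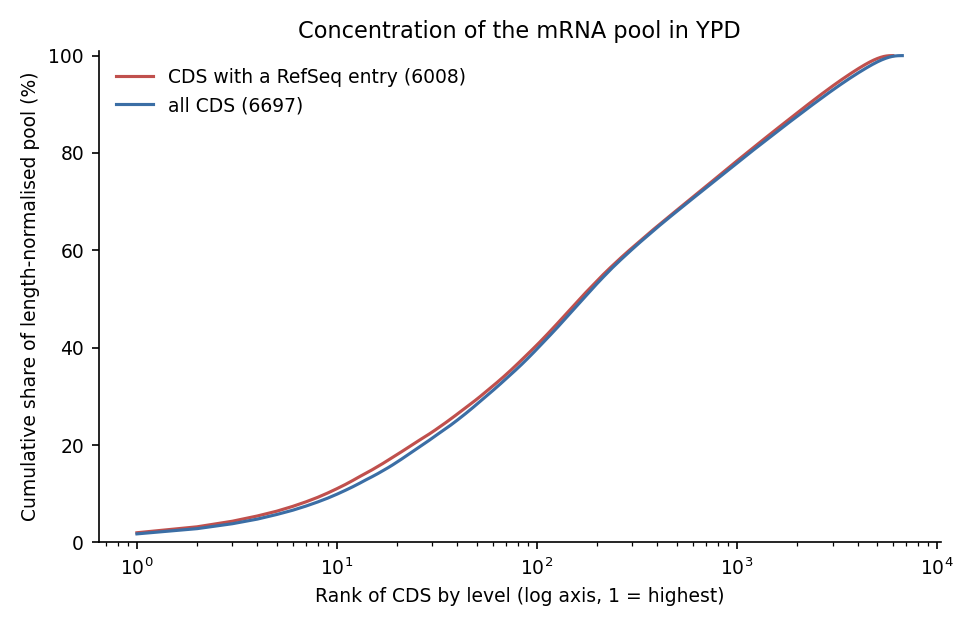
Cumulative share of the length-normalised pool (vertical axis, percent) against the rank of CDS by level (log axis, 1 = highest), for all 6697 CDS and for the 6008 with a RefSeq entry. The curve of all CDS passes 39.8% at rank 100 and 78.0% at rank 1000.

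Glycolytic enzymes, cell wall proteins, translation factors and ribosomal proteins filled the top of the list. The highest CDS was TDH3, a glyceraldehyde-3-phosphate dehydrogenase, with 105123 reads and a level of 16.73 on the log2 scale. The aldolase FBA1 followed at 15.94 (65476 reads), and the phosphoglycerate mutase GPM1 stood at 15.72 (38726 reads). Enolase ENO2 (15.71), alcohol dehydrogenase ADH1 (15.66) and pyruvate decarboxylase PDC1 (15.61) were close behind. TDH2 (15.25), pyruvate kinase CDC19 (15.16), phosphoglycerate kinase PGK1 (15.12) and triose phosphate isomerase TPI1 (15.09) completed the glycolytic block. The mannoprotein CCW12, a main coat protein of the wall, had a level of 15.85 and CWP2, another wall mannoprotein, 15.43. TEF2 and TEF1, near-identical genes of elongation factor 1A, had levels of 15.57 and 15.50. The first ribosomal protein gene was RPS31 (15.48), which encodes a fusion of ubiquitin to a small subunit protein, followed by RPS12 (15.18). The thioredoxin peroxidase AHP1 (14.76, 14282 reads) was the highest named gene outside these groups.

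Among the 25 highest CDS with a RefSeq entry, 2 uncharacterized genes stood out for their short length. YDR524W-C, of 90 bp, had 5809 reads and a level of 16.03, the second rank of all CDS, and YDR524C-B, of 201 bp on the other strand of the same part of chromosome IV, had 9663 reads and a level of 15.60. YDR524C-B had 93.8% preferred codons and YDR524W-C had 42.9%. The next uncharacterized genes were YLR264C-A at 13.67, YCR024C-B at 13.55 and YAL037C-A at 12.06. How reads that only partly lie in a short CDS were counted is not given in the sources used here. These uncharacterized CDS do not overlap another CDS, but whether reads of a neighbouring transcript on either strand were counted in them was not tested.

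Of the 100 highest CDS with a RefSeq entry, Ty elements left out, 60 were ribosomal protein genes, 11 belonged to glycolysis and fermentation, 5 were translation factors and 4 were core histone genes. The 16 on no list included the thioredoxin peroxidase TSA1 (14.21), the peptidylprolyl isomerase CPR1 (14.32), the ribosome-bound protein ASC1 (14.00), superoxide dismutase SOD1 (13.61), PSA1 of mannose donor synthesis (13.57) and the proton pump PMA1 (13.49).

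Some high values stood on CDS that face another gene. Of the 100 highest of all CDS, 19 had no RefSeq entry, and the leading ones lay opposite a highly expressed gene. YKL153W had a level of 15.84, against 15.72 for GPM1 on the other strand. YLR076C (15.23) lay opposite RPL10 (14.85), YAL037C-B (15.21) opposite CDC19 (15.16) and YCR013C (15.17) opposite PGK1 (15.12). Over the 192 CDS without a RefSeq entry that lay at least 90% inside a RefSeq CDS of the other strand, the level differed from that of the partner by a median of 0.14 (middle 50% from -0.27 to 0.48). Pearson's r across these CDS was 0.96, given as a description since each pair shares its reads' positions. Reads of the opposite strands cannot be told apart there, and whether counting used strand is not given. The same limit holds for RefSeq CDS that overlap a CDS of the other strand, as GPM1, RPL10, CDC19 and PGK1 do. Whether reads of the other strand also entered CDS without an annotated overlap, low ones included, was not tested. CDS without a RefSeq entry are named only in this paragraph.

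Ribosomal proteins made the largest contribution of any list. All 137 ribosomal protein genes were in the highest 10% of CDS, where 10% of all CDS lie by definition, with a median level of 13.15 on the log2 scale against 7.82 for all CDS. They held 24.7% of the length-normalised pool and 18.2% of reads (95% Clopper-Pearson interval 18.14 to 18.21). Small subunit genes had a median of 13.23 and large subunit genes 13.12. The 89 with an intron had a median level of 12.89 and the 48 without 14.03 with the deposited length, which counts introns. With the spliced length of the reference these medians were 13.85 and 14.03, the whole list's median was 13.93 and its share of the pool 31.5%.

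Ribosomes hold most of their proteins as single copies, the stalk proteins P1 and P2 being present as more than a single copy, and most ribosomal proteins are encoded by a pair of genes. With spliced lengths, single genes spread over 11.16 to 15.48 on the log2 scale, with an SD of 0.74 over the 137 genes. When the copies of each protein were summed, the 78 proteins had an SD of 0.38 and a median of 14.74. Summing the values of a pair tends by itself to narrow a log2 spread, and its part in the smaller SD was not tested. The 59 proteins with a pair of genes had a summed median of 14.76 and the 19 with a single gene had 14.55, while the individual members of pairs had a median of 13.82. The lowest protein was RPL41 at 12.83. Its genes RPL41A (172 reads) and RPL41B (376 reads) are CDS of 78 bp with near-identical copies, and the effect of so short a length was not tested. The highest was the stalk protein P1 at 15.67, the sum of RPP1A and RPP1B, whose products are only 55.2% identical. The ubiquitin fusion RPS31 (15.48) and the stalk protein P2 (15.34) came next. P2 is likewise the sum of RPP2A and RPP2B, whose products are 56.7% identical. With the deposited lengths the SD over proteins was 0.64.

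**Figure D2:**
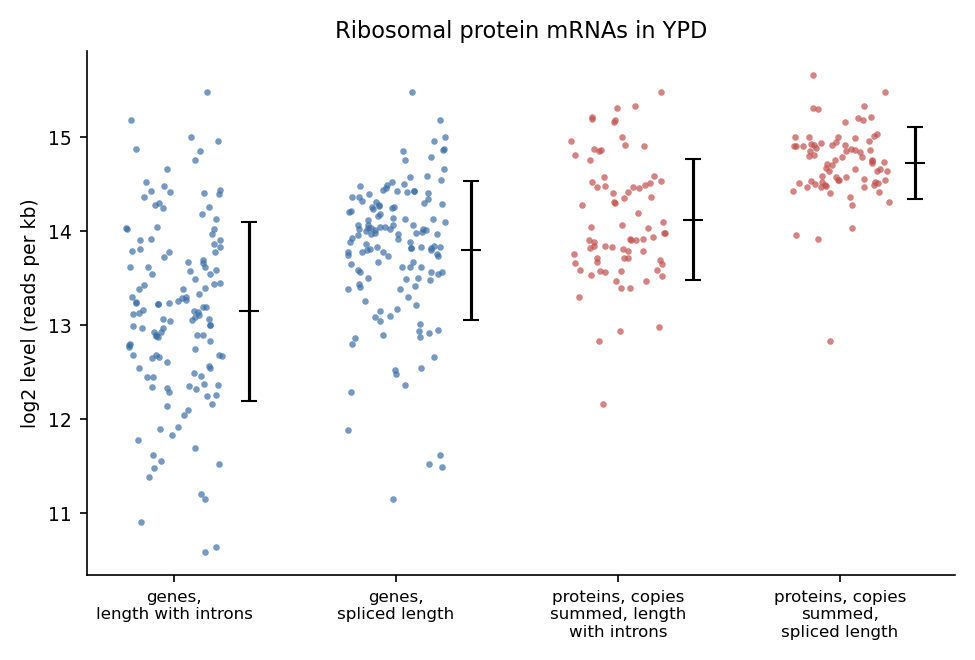
Log2 levels (vertical axis, reads per kb) of the 137 ribosomal protein genes and of the 78 proteins after summing the copies, with the length including introns and with the spliced length. Each point is a gene or a protein and the bars give the mean ± SD over them, with an SD of 0.38 for summed proteins with spliced length against 0.74 for single genes.

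Glycolysis and fermentation had a median of 13.34 on the log2 scale over 21 genes, above the 13.15 of ribosomal proteins with the deposited length but below their 13.93 with spliced length, and 18 of them were in the highest 10%. The list held 9.05% of the pool and 11.2% of reads (95% interval 11.14 to 11.19). The upper steps of the pathway were lower than the rest. The hexokinase HXK2 had a level of 12.43, the phosphofructokinase subunits PFK1 and PFK2 had 11.00 and 10.45, and phosphoglucose isomerase PGI1 had 12.95. Every step from aldolase to ethanol had at least 1 gene at 15.09 or above. The exceptions in the list were the duplicates PYK2 (6.83), PDC5 (6.39) and PDC6 (2.29, 8 reads).

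The other lists for making and folding proteins also had medians above that of all CDS. The 34 translation factors had a median level of 11.38 and 33 lay above the median of all CDS, HEF3 (4.67) being the exception. The 18 cytosolic aminoacyl-tRNA synthetases, which charge tRNAs, lay within 10.29 to 11.72 with a median of 10.83. The 30 ribosome biogenesis factors had a median of 9.21 and were led by nucleolar proteins, with NOP1 (12.01), NOP10 (11.79), NSR1 (11.53) and NHP2 (11.48). Cytosolic chaperones had a median of 10.97, from SSA1 (13.83) and the ribosome-associated SSB1 (13.35) down to BTT1 (6.49).

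Subunits of the proteasome were the most even of the large complexes listed. All 32 genes lay between 9.80 (RPN9) and 10.90 (PRE2), with an SD over genes of 0.31. The core particle, which holds the proteolytic sites, had a median of 10.64 over 14 genes and the regulatory particle 10.13 over 18. The 8 core histone genes were also even, from 12.76 (HTA2) to 13.64 (HHF2) with an SD of 0.30. The histone variant genes HTZ1 (10.25) and CSE4 (7.81), which mark promoters and centromeres, and the linker histone HHO1 (10.04) were lower. This RNA was selected for poly(A) tails, which yeast histone mRNAs carry.

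Lists for biosynthesis, respiration and the cell wall had medians above 8.98, the upper limit of the middle 50% of all CDS. The 49 amino acid biosynthesis genes had a median of 10.01 and 47 lay above the median of all CDS, led by ILV5 (12.71), CYS4 (11.85) and GLN1 (11.85). ARG3 of arginine synthesis was the lowest at 5.35. The 23 ergosterol genes had a median of 10.14, with ERG3 and ERG25 highest at 11.44 each and the reductases HMG1 (8.02) and HMG2 (7.80) lowest. The tricarboxylic acid cycle (15 genes) had a median of 9.74 and the nuclear genes of the respiratory chain and ATP synthase (36 genes) 9.80. ATP2 and ATP1, of the catalytic part of ATP synthase, led the respiratory list at 11.43 and 11.04. Succinate dehydrogenase SDH1 was the lowest of the cycle at 7.68. The 23 cell wall genes had a median of 11.73, and PIR3 (7.25) was the only member below the median of all CDS.

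**Figure D3:**
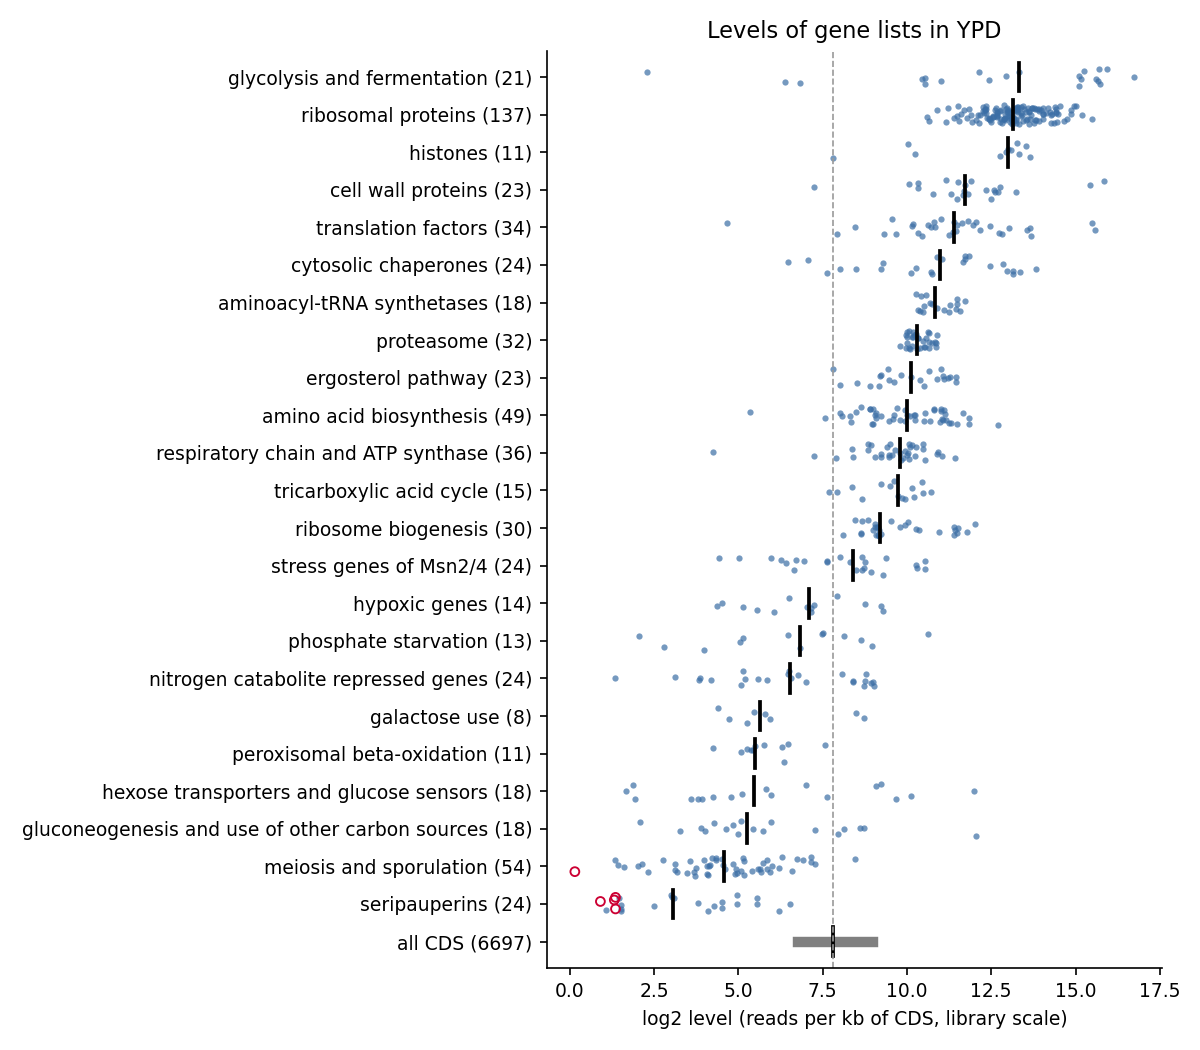
Log2 level (horizontal axis, reads per kb of CDS) of every member of 23 gene lists, with list medians as black bars, above the middle 50% and median of all 6697 CDS (grey bar and dashed line at 7.82). Red circles are members without a read, drawn at the deposited floor, and the medians run from 13.34 for glycolysis and fermentation to 3.07 for the seripauperins.

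Genes for growth on carbon sources other than glucose had low medians. Of 18 genes for gluconeogenesis and other carbon sources, 5 lay above the median of all CDS and the list's median was 5.26. PCK1 (26 reads, 4.03) and FBP1 (25 reads, 4.63), the committed steps of gluconeogenesis, and MLS1 of the glyoxylate cycle (24 reads, 3.90) were all low. The 5 above the median of all CDS were ADH2, the alcohol dehydrogenase that uses ethanol (4277 reads, 12.05), the malate dehydrogenase MDH2 (8.73), the aldehyde dehydrogenase ALD4 (8.62), the lactate dehydrogenase DLD1 (8.14) and the invertase SUC2 (7.96). ADH2 shares 14.0% of its 50-base windows exactly with ADH1, which had 52287 reads, and the part of this sharing in the level of ADH2 was not tested. Of 8 galactose genes, GAL1 (85 reads, 5.79), GAL10 (90 reads, 5.47), GAL7 (28 reads, 4.72) and the permease GAL2 (35 reads, 4.39) were low but read. The strand that these reads came from is not known. The phosphoglucomutase PGM2 (8.73), which also serves glycogen and trehalose metabolism, and the repressor GAL80 (8.49) were the 2 members above the median of all CDS. All 11 genes of peroxisomal β-oxidation lay below the median of all CDS, from POX1 (4.24) to PEX11 (7.56).

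Hexose transporters covered a wide range. HXT3, a low-affinity glucose transporter, had 6763 reads and a level of 12.00, and HXT1, also of low affinity, had 1863 reads and a level of 10.14. HXT4 (9.69), HXT7 (9.24) and HXT6 (9.08) were next. HXT2 (311 reads, 7.63) lay just below the median of all CDS. The glucose sensors RGT2 (7.00) and SNF3 (5.97) were lower, and HXT9, HXT10 and HXT14 had 5 or 6 reads. HXT6 and HXT7 are nearly identical in sequence, so that the split between them is uncertain.

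Lists of starvation, stress and hypoxic genes had medians between 6.53 and 8.40. The 24 nitrogen catabolite repressed genes had a median of 6.53, with the near-identical ASP3 asparaginase genes, CAR1 (8.99) and PUT2 (8.75) highest and DAL80 (2 reads, 1.35) lowest. Phosphate starvation genes (13) had a median of 6.82, with the polyphosphate subunit VTC1 (10.63) above the transporters PHO84 (6.82) and PHO89 (7 reads, 2.07). The 24 stress genes of the Msn2/4 regulators had a median of 8.40, 14 of them above that of all CDS. GLK1 (10.54), HXK1 (10.54), TPS1 (10.29) and HSP104 (10.28) led that list, and HSP12 stood at 9.38 with 212 reads. SIP18 (5 reads) and GRE1 (16 reads), hydrophilin genes, were the lowest. Hypoxic genes (14) had a median of 7.10, led by TIR1 (9.29) and COX5B (9.25).

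Meiosis and sporulation genes were low, but most had reads, and the strand that these came from is not known. Of 54 meiosis and sporulation genes, 1 lay above the median of all CDS, SPR6 at 8.47 with 198 reads, and the list's median was 4.58. The inducer IME1 had 100 reads (6.58), the kinase IME2 43 (4.52) and the regulator NDT80 87 (5.58). SPO11, which makes meiotic breaks, had 27 reads (4.55), DMC1, the meiotic recombinase, 38 (5.16), and the cohesin REC8 5 (1.34). OSW1 was the only member with 0 reads, and 11 members had at most 10 reads, against 7.38% of all CDS. The 5 flocculin genes lay between 3.87 (FLO11) and 5.68 (FLO5).

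CDS without a read were few. There were 131, or 1.96% of all CDS, of which 28 were mitochondrial and 103 nuclear. All 28 mitochondrial CDS had 0 reads in this poly(A)-selected library, and whether mitochondrial reads were kept is not given in the sources used here. Of 5989 nuclear CDS with a RefSeq entry, 98.9% had at least 1 read, and 89.7% of all CDS had at least 20. The unread nuclear CDS were short, with a median length of 315 bp against 1101 bp for those with a read, and a count of 0 allows a level of up to 3.30 at the median and up to 5.93 for the shortest. Within 20 kb of a chromosome end 11.5% of CDS had no read, against 1.04% farther in, and the median level there was 5.05 over 321 CDS against 7.90 over 6348. Near-identical copies were not set apart in this contrast. Of nuclear CDS with such a copy 7.46% had no read, against 1.18% of those without. How reads with several matches were placed is not given, and the part of copies in the contrast was not tested.

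Of the 103 unread nuclear CDS, 29 had a near-identical copy and 37 had no RefSeq entry. With both kinds set aside 49 remained, 32 of them uncharacterized. The 17 with a gene symbol included, besides LEU2, URA3, MET17, OSW1 and MF(ALPHA)1, the GATA factor genes GAT3 and GAT4, the sporulation gene SPR2, the stationary phase gene SPG4, and PHO92, which encodes a reader of methylated RNA that acts in meiosis. TYC1, API2, ANS1, RNP1, RRT7, IRC13 and ECM23 were the others. Only 8 of the 49 were 500 bp or longer. A further 156 CDS had 1 to 3 reads and could not be told from 0 at this depth.

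Seripauperins and Ty elements had medians below that of all CDS. The 24 seripauperins (PAU genes), a family of wall mannoproteins induced without oxygen, had a median level of 3.07, and together they had 145 reads. PAU8, PAU14, PAU16 and PAU21 had 0 reads, and 18 had at most 10, against 1.96% and 7.38% of all CDS. Among nuclear CDS with a near-identical copy 7.46% had no read. The highest were PAU7 (6.53), PAU18 (6.21) and, at 5.55 each, PAU17 and PAU23. As 22 of the 24 have a near-identical copy, the split among them is uncertain. The sum is not affected by reads moved within the family, but it would lack any reads left out for matching several places. The median of the list minus that of all CDS was -4.75, and -2.34 when CDS with near-identical copies were left out of both. Ty retrotransposon CDS (92) had a median of 5.68 and held 0.148% of the pool. Nearly all of these (90) have near-identical copies. Their median lay at -2.14 from that of all CDS, but at 0.036 when CDS with such copies were left out, which leaves 2 Ty CDS, and how reads that match several places were treated was not tested.

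The choice between duplicated genes was measured for 491 pairs of reciprocal best matches, at least 40% identical over 70% of both proteins. In 471 pairs the higher member had at least 20 reads. Their median log2 ratio was 1.09, and 140 (29.7%) were at least 4-fold apart in level and 75 at least 10-fold. Leaving out pairs with near-identical copies gave 129 of 412. Pairs of 60 to 90% identity were at least 4-fold apart in 59 of 157 cases, those of 40 to 60% identity in 58 of 190 and those of 90% or more in 23 of 124.

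The most one-sided pair was that of the main pyruvate decarboxylase genes. PDC1 had 81527 reads and PDC5 137, a log2 ratio of 9.22 (95% Clopper-Pearson interval 8.98 to 9.47). PDC6, the remaining pyruvate decarboxylase, had 8 reads, so that PDC1 supplied 99.8% of the set. CDC19 had 53062 reads and PYK2 167, a log2 ratio of 8.33 (8.11 to 8.56). OYE2, an NADPH dehydrogenase, had 4664 reads and OYE3 12 (ratio 8.60, 7.80 to 9.56). YEF3, elongation factor 3, had 25199 reads and HEF3 77 (ratio 8.35, 8.03 to 8.70). For 6-phosphogluconate dehydrogenase GND1 had 7311 reads and GND2 36, a ratio of 7.67 on the log2 scale. The other 5 of the 10 largest were MPC2 over MPC3 (mitochondrial pyruvate carrier, 7.49), YGP1 over SPS100 (7.15), TSA1 over TSA2 (7.07), PMA1 over PMA2 (6.90) and NCE102 over FHN1 (6.73). In each of these 10 pairs the lower member shared at most 1.36% of its 50-base windows with the higher.

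**Figure D4:**
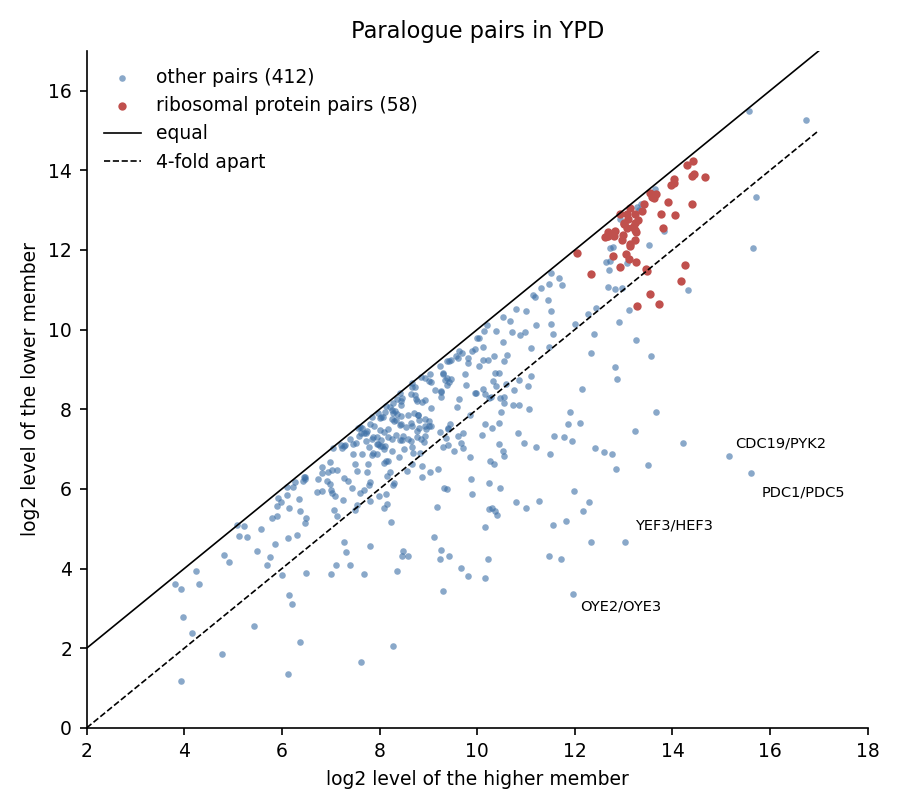
Log2 level of the lower member (vertical axis) against that of the higher member (horizontal axis) for 470 paralogue pairs with at least 20 reads in the higher member and at least 1 in the lower, with 58 ribosomal protein pairs in red. The solid line marks equal levels and the dashed line a 4-fold difference, and most ribosomal protein pairs lie above the dashed line while PDC1/PDC5 and CDC19/PYK2 lie far below it.

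Several other glycolytic sets were less one-sided. TDH3 supplied 71.4% of the glyceraldehyde-3-phosphate dehydrogenase mRNA per length, TDH2 25.6% and TDH1 2.96%. ENO2 supplied 83.8% of the enolase set and ENO1 16.2%. HXK2 supplied 64.9% of the hexokinase set, GLK1 17.6% and HXK1 17.5%. ADH1 supplied 92.4% of its pair with ADH2. TDH3 and TDH2 are near-identical and TDH2 shares 24.4% of its 50-base windows with TDH3, so the split between them is uncertain. ENO1 shares 23.6% of its windows with ENO2 and TDH1 8.84% with TDH3.

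Several sets are known for differential use by oxygen, stress or carbon source. HYP2 supplied 98.1% of the eIF5A mRNA and ANB1, its hypoxic partner, 1.85%. PET9 supplied 92.9% of the ADP/ATP carriers, AAC3 5.18% and AAC1 1.92%. CYC1 supplied 75.3% of cytochrome c and CYC7 24.7%. COX5A and COX5B were nearly level, with 315 and 319 reads and a log2 ratio of 0.22 whose interval (-0.01 to 0.45) includes 0. With spliced length that ratio was -0.04. HMG1 over HMG2 gave a log2 ratio of 0.22 (0.07 to 0.37). The constitutive Hsp90 gene HSC82 supplied 79.0% against 21.0% for HSP82, RNR1 98.4% of the ribonucleotide reductase large subunit against 1.56% for the damage-inducible RNR3, and ACS2 96.8% of acetyl-CoA synthetase against 3.18% for the glucose-repressed ACS1. EFT2 over EFT1 and SSA1 over SSA2 were also uneven, but those genes have near-identical copies and the split of reads is uncertain.

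Ribosomal protein pairs were closer together. Of 58 pairs 6 were at least 4-fold apart, or 10.3%, against 134 of 413 other pairs (32.4%), and their median log2 ratio was 0.54 against 1.27. The 6 were RPS9B over RPS9A (3.08), RPS22A over RPS22B (2.98), RPL22A over RPL22B (2.67), RPS14A over RPS14B (2.64), RPL15A over RPL15B (2.64) and RPS24A over RPS24B (2.01, near-identical copies). With spliced length the ratio for RPS22A and RPS22B was 1.82, below 4-fold. In 45 of 58 pairs the higher member also had the larger share of preferred codons. Ribosomal protein pairs were also more alike in sequence, with a median identity of 99.1% against 62.4% for other pairs. Of all pairs of 90% identity or more, ribosomal ones included, 18.5% were at least 4-fold apart. In 13 of the 58 a member has a near-identical copy, which makes the split of reads uncertain. The part of sequence identity in the difference was not tested.

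Codon use ran with level. Across 5897 nuclear CDS with a RefSeq entry, Spearman's rho between level and the share of preferred codons was 0.53, a description over genes of a single library. Without ribosomal protein genes it was 0.50, while rho was 0.18 for GC content and -0.13 for length. The relation was not even along the range. The median share of preferred codons was 44.3% in the lowest 10% of these CDS, 45.4% in the sixth step of 10%, 52.9% in the ninth and 70.4% in the highest. Of 240 CDS with 80% preferred codons or more, 207 (86.2%) were in the highest 10% of all CDS, where 10.2% of these 5897 CDS lay. How far the textbook set of preferred codons rests on the codon use of highly expressed genes was not tested, so part of this relation may be built into the set.

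Exceptions lay on both sides. Below the median of all CDS, 92 had 60% preferred codons or more, and 24 of these were PAU genes. PAU genes had a median of 87.6% preferred codons at a median level of 3.07, close to the 89.0% of ribosomal protein genes at 13.15. Near-identical copies exist for 22 of the 24 PAU genes, so their levels are uncertain. PDC5 had 88.2% preferred codons at a level of 6.39, against 96.3% and 15.61 for PDC1, whereas PYK2 had 50.6% against 95.5% for CDC19. The wall genes TIR2 (84.4%, level 6.07) and TIR3 (81.1%, level 7.15) and the thiamine synthesis genes THI5, THI11, THI12 and THI13 (80.2 to 81.0%, levels 1.60 to 3.48, near-identical copies) were alike in this. The phosphate-repressed genes PHO84 (75.4%, level 6.82) and PHO5 (74.0%, level 7.52) also lay below the median of all CDS. In the other direction, 6 CDS of the highest 10% had under 40% preferred codons, which were YLR264C-A, MTC7 (28.7%, level 12.23), YLR285C-A, AUA1, YLR154C-G and ELF1. Of these, YLR264C-A, YLR285C-A and YLR154C-G are uncharacterized CDS of 117, 171 and 150 bp. Whether reads of a neighbouring or opposite transcript entered the counts of these 6 CDS was not tested.

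**Figure D5:**
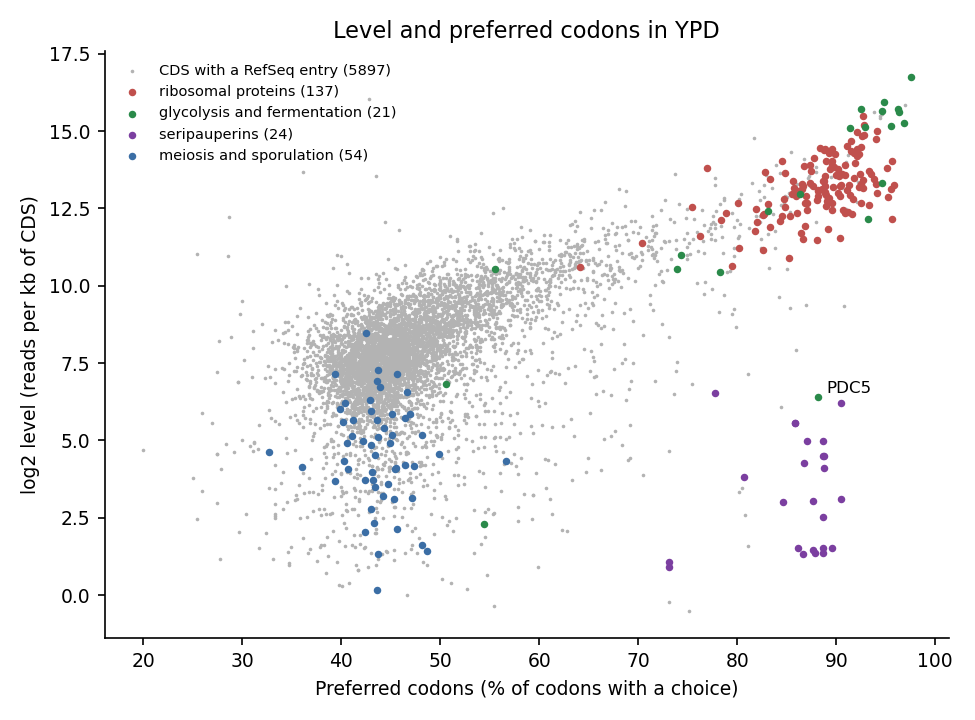
Log2 level (vertical axis, reads per kb of CDS) against the share of preferred codons (horizontal axis, percent) for 5897 CDS with a RefSeq entry, with ribosomal protein, glycolytic, seripauperin and meiosis genes in colour. Ribosomal protein and most glycolytic genes lie at the upper right, while seripauperins and PDC5 lie at the lower right, with CDS without a read at the deposited floor.

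Within paralogue pairs the member with more preferred codons was mostly the higher one. This held in 338 of 471 pairs, in 120 of the 140 pairs at least 4-fold apart, and in 68 of the 69 of these whose higher member was in the highest 10% of CDS. Those 140 and 69 pairs were picked by level, and CDS of the highest levels had the largest shares of preferred codons. Their counts may partly follow from the relation across all CDS and add no separate support. The limit on the textbook set of codons holds here too.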

How the data were processed

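Wild-type BY4741 cells from YPD gave 1 poly(A)-selected, strand-preserving RNA library (1 of 5 samples), and the 4 other samples and the peak list were not used. The deposited values are log2. The authors mapped reads with HISAT2 (version 2.0.5 per the labels) to R64, counted them on CDS in SeqMonk, scaled the library, expressed them per kb of the unspliced CDS as log2 values, and unread CDS stand at 0.9 reads. Reads were recovered by reversing these steps with a scale of 1.04 taken from that floor. All 6566 values above it came out whole within 0.01 reads, or within a relative rounding error for large counts. Whether counting used strand, and how reads with several matches were placed, is not given in the sources used here.

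The pool is reads divided by length, summed over CDS. Gene symbols, spliced lengths and sequences are from RefSeq R64 (6008 CDS matched, 99.9% at the same position). Near-identical copies and reciprocal best protein matches were found with BLAST+ 2.17.0, and preferred codons are a textbook set of 23 that leaves out ATG and TGG. Intervals of ratios are 95% Clopper-Pearson. Read recovery and the intervals were tested on simulated data. With 1 library no test across genes was possible. RPP1, a subunit of RNase P, was removed from the name pattern of ribosomal proteins, and DUR1,2 could not be matched. Named genes are the 25 highest CDS with a RefSeq entry, the 5 highest without a symbol, strain and mating type genes, the highest, lowest and unread members of lists, the isozyme sets, the 10 pairs with the largest ratio and unread CDS with a symbol. Any other gene was named with its value known. Members and lists were chosen with earlier results of these data known. Alternatives were length, filters on copies, overlaps and annotation, read limits and pair thresholds.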

Additional observations from a re-analysis of the deposited data

How the results depend on the processing

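No paired analysis was possible because only 1 library was described. Without replicates, differences between alternatives are set against counting error or the interval of a median, and the cause of a shift was not tested unless the construction shows it.

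The share of the pool of the 100 highest CDS (39.8%) was 39.5% with spliced length, 40.6% for CDS with a RefSeq entry, 39.9% without near-identical copies, 42.5% without overlapping CDS and 33.6% of reads without division by length. In the same order, ribosomal proteins (24.7%) gave 31.5%, 28.0%, 22.9%, 27.5% and 18.2%, glycolysis (9.05%) gave 8.15%, 10.3%, 7.50%, 9.02% and 11.2%, and translation factors (3.40%) gave 3.20%, 3.85%, 1.67%, 4.06% and 5.10%. Removing near-identical copies takes out TEF1 and TEF2. Ty CDS (0.148%) gave 0.133% with spliced length, 0.167% for RefSeq CDS and 0.581% without division by length. CDS counted as silent (131) numbered 287 at no more than 3 reads, 494 at no more than 10 and 85 with a RefSeq entry. Paralogue pairs at least 4-fold apart (140) numbered 82 at 60% identity and 23 at 90%, and 250 pairs were 2-fold and 75 were 10-fold apart.

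Of 90 alternatives for list medians, taken as the list minus all CDS, 79 stayed within the interval of the main median. Without near-identical copies the difference was 0.036 for Ty CDS (-2.14 for all) and 1.31 for the mating type loci (-4.53), both reversed with few genes left, and -2.34 for seripauperins (-4.75). Without division by length it was -1.34 for Ty CDS, 3.81 for tRNA synthetases, -1.92 for flocculins, 2.18 for the proteasome, 0.28 for the respiratory chain (1.98 per length), 4.62 for ribosomal proteins and -6.52 for seripauperins. With spliced length it was 6.10 for ribosomal proteins (5.33). Spearman's rho of codons with level was 0.56 without near-identical copies (0.53). In alternatives chosen after seeing the data, the SD over ribosomal proteins (0.38) was 0.64 with deposited length and 0.32 without RPL41. Genes with under 4 reads cannot be told from unread ones at this depth.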
